A study of Homo sapiens with 26 samples.

Results

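The genes described here are 35 HLA and antigen presentation genes, chosen by name from the 57773 genes of the deposited count table and found there through their Ensembl identifiers. They comprised 8 class I chains and class I relatives, 9 class I loading and trimming genes, 3 immunoproteasome subunits, 7 class II chains, 5 class II loading genes and 3 transactivators. RNA was measured in TF-1, an established line of human erythroleukemia cells grown with GM-CSF, the cytokine it needs. The knockout (KO) arm consisted of the TET2 -/- clones F4 and A12, and the wild type (WT) arm of the clones A7 and C4, so that each genotype was represented by 2 clones of 1 line. TET2 is a dioxygenase that oxidises methylated cytosine. Cells received 200 nM 5-azacytidine (Aza), a cytidine analog that inhibits DNA methyltransferases, or the vehicle DMSO, daily for 3 days. Cells were harvested before treatment, at 72 h and at 264 h, counted from the first dose. A first batch held all 4 clones under both treatments, and a second batch held 6 KO libraries: DMSO at 72 h and 264 h, and pre-treatment libraries whose labels disagreed about the treatment. All 11 groups shared the parental line and its culture medium. They held 2 libraries each, except KO DMSO at 72 h with 3 and KO DMSO at 264 h with 4, and no label says that the libraries of a clone came from separate cultures, so that p-values measure the spread between these libraries.

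Class I molecules present peptides from inside the cell. A heavy chain such as HLA-B, HLA-C or HLA-E pairs with beta-2 microglobulin (B2M), the immunoproteasome cuts the peptides, the TAP1 and TAP2 transporter carries them into the endoplasmic reticulum, ERAP1 and ERAP2 trim them, and tapasin (TAPBP) with CALR, PDIA3 and CANX helps the groove to load. Class II molecules (HLA-DR, HLA-DP and HLA-DQ) present peptides taken up from outside; CD74, the invariant chain, blocks their groove until HLA-DM exchanges its remnant for a peptide. CIITA is the coactivator that switches on class II genes through an RFX and NFY complex on the promoter, and NLRC5 is its class I counterpart. Interferons induce many of these genes.

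Promoter sequence was found for 30 of the 35 genes, in 43 windows of RefSeq for GRCh38.p14, each reaching from 250 bases before to 50 bases after an annotated start. Those of HLA-DRA, HLA-E, NLRC5, CIITA and PDIA3 were not among them. On either strand, the X box pattern (CC, 2 free bases, G, 2 free bases, AC, 1 free base, GATG) occurred in 3 of the 43 windows, those of HLA-DQB1, HLA-DMA and HLA-DMB, and in 70 of 35116 windows genome-wide (0.199%). The search allowed no mismatch, so a window without a match may still hold a variant of the box. The window of HLA-DRB1, for example, holds a stretch that departs from the pattern at its first base only. The CCAAT box, searched as ATTGG on either strand, occurred in 26 of the 43 windows and in 34.6% of all windows. The interferon-stimulated response pattern (GAAA and GAAA with 2 free bases between them) occurred in 10 of the 43 windows and in 3.57% of all windows. The TTCNNNGAA pattern bound by STAT factors occurred in 3 of the 43 and in 7.66% of all windows, a share close to that of the genes described. The 160 bases before the start are shown, 5′ to 3′ on the gene's strand, for the X box genes and CD74, which carried the clone differences below, and for B2M and TAP1, which carry the interferon pattern. Capitals mark a match to the X box, the CCAAT box or the interferon pattern. Matches of the last overlap one another in B2M and in TAP1. TAP1 has a further window, at another annotated start and not shown, that holds no match to the interferon pattern.
HLA-DQB1, chr6:32666658-32666817, minus strand: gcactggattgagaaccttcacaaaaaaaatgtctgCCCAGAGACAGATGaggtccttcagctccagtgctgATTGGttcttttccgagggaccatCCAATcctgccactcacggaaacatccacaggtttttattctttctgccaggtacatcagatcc
HLA-DMA, chr6:32953098-32953257, minus strand: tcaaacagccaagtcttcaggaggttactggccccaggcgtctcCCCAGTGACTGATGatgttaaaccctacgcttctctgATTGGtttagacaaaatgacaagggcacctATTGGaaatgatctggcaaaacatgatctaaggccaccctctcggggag
HLA-DMB, chr6:32941029-32941188, minus strand: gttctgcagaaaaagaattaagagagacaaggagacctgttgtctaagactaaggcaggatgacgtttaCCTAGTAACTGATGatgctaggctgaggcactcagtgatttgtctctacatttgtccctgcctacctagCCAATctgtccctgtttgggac
CD74, chr5:150412911-150413070, minus strand: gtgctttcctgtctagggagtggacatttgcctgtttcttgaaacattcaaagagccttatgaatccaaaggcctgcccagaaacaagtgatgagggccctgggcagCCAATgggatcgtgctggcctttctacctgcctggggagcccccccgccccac
B2M, chr15:44711357-44711516, plus strand: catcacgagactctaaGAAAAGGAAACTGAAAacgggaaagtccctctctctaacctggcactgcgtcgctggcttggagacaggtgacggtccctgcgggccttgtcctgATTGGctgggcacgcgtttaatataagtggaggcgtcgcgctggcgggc
TAP1, chr6:32853705-32853864, minus strand: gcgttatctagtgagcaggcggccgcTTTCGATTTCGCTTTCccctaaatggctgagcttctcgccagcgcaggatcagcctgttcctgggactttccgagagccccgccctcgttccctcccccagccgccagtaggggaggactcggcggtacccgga

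Most promoter windows of the class II genes held few CpG, the dinucleotide that DNA methyltransferases methylate. The median window held 3 CpG in the class II chains and 3 in the class II loading genes, against 19 in the class I chains, 20 in the class I loading genes, 16 in the immunoproteasome and 14 over all windows. The class II chains ranged from 1 to 27, the latter in 1 of the windows of HLA-DPA1. Methylation itself was not analysed here.

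The 25 libraries that passed the submitters' quality control held 24992192 to 40187322 counts each (median 27477937), and a further KO DMSO library at 72 h that failed it, of clone F4, entered only an alternative. Clone F4 therefore had its DMSO value at 72 h only in the second batch. Gene-level counts of TET2 did not separate the genotypes, at 24.9 to 46.4 CPM (counts scaled by the normalised library size) in the KO libraries and 22.5 to 29.96 in the WT libraries. A summed list of 8 erythroid progenitor markers reached 2355 to 5965 CPM in every library, with CSF2RA at 0. Whether CSF2RA is silent or its reads went uncounted was not tested. Of immune cell markers, 5 B cell genes summed to 3.23 to 8.88 CPM with MS4A1 at 0 and 6 monocyte and macrophage genes to 9.00 to 24.2. Other lists moved with clone, genotype or drug: 5 T cell genes, mostly CD3D, summed to 36.7 to 62.0 CPM in A12, 9.96 to 17.7 in F4 and 0.917 to 4.26 in WT. The sum of 6 dendritic cell genes was 92.9 to 150.1 in KO and 46.1 to 88.2 in WT, and at 72 h it was 92.9 to 98.6 with Aza and 118 to 150.1 with DMSO in KO and 46.1 to 51.0 and 85.8 to 88.2 in WT. Their part in the results was not tested. In bulk RNA, fewer cells of a kind and less RNA per cell cannot be told apart.

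The pre-treatment WT libraries stood apart and went against their clone labels. After treatment the library labelled A7 exceeded that labelled C4 in 12 of 12 class II genes in each of 3 groups and in 11 of 12 with Aza at 72 h. Before treatment the order was the opposite in 11 of 12. Across the 18358 tested genes outside the 35, the A7 minus C4 differences of the pre-treatment libraries correlated with those of the 4 later groups at Pearson r of -0.363 to -0.419, while the later groups correlated with one another at 0.361 to 0.425. These are correlations across genes, which are not independent replicates. Results are therefore given from the fit of all 25 libraries and from a fit of 23 libraries that leaves out the 2 pre-treatment WT libraries. WT comparisons of DMSO with the pre-treatment state are also given in part with the 2 labels exchanged. They cover counts of genes called, HLA-E at 72 h and some class II genes. For the other genes, WT values against the pre-treatment state rest on the labels as deposited.

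Exon length differed between genes, so levels were compared as CPM per kilobase. CALR (calreticulin) had the highest median at 763.5 CPM per kilobase, and its range (560 to 873) lay above all others. CANX (calnexin) followed at 207 (178 to 239), then HLA-DRA at 153 (76.0 to 541.8), B2M at 149 (128 to 198) and PDIA3 at 109 (92.1 to 119). The range of HLA-DRA overlapped those of CANX, B2M and PDIA3, and CANX and B2M overlapped too, so that these did not separate. HLA-DRB1 had a median of 60.1, HLA-E of 54.1, CD74 of 38.4 and HLA-C of 30.2 CPM per kilobase. HLA-B stood at only 3.76, near CIITA at 3.05 and NLRC5 at 3.09. HLA-F, with 0 to 4 counts per library, and HLA-G, with 0 to 9, did not reach the level needed for a test, so that 33 of the 35 genes were tested. At these depths 3 counts correspond to 0.0747 to 0.12 CPM. HLA genes have near-identical copies and their assignment is uncertain, in particular between HLA-B and HLA-C and between HLA-DRB1 and HLA-DRB5. Counting used no strand information, so reads in the overlaps of TAP1 with PSMB9 and of HLA-DPA1 with HLA-DPB1 cannot be told apart.

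With Aza against DMSO at 72 h, HLA-E and TAP1 rose and ERAP1 fell in both genotypes, and the number of genes called was near the background in KO and below it in WT. In KO, 6 of the 33 genes rose (HLA-E, MICA, TAP1, PSMB9, NLRC5 and RFX5) and 3 fell (TAP2, TAPBP and ERAP1) at a Benjamini-Hochberg adjusted p under 0.05 in edgeR's quasi-likelihood test. Over all 18391 genes 20.1% were called, 11.6% higher and 8.47% lower. In WT, 2 rose (HLA-E and TAP1) and 2 fell (ERAP1 and ERAP2), beside 18.3% of all genes, 9.26% higher and 9.04% lower. The median log2 difference over the 33 genes was 0.21 in KO and 0.07 in WT, with 0.01 and 0.00196 over all genes. At 264 h none of the 33 was called in either genotype by edgeR or DESeq2, and 1 in KO and 2 in WT had an unadjusted p under 0.05; the background was 0.0979% of all genes in KO (0.0816% higher and 0.0163% lower) and 0.5% in WT (0.364% and 0.136%).

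DMSO alone also went with a change from the pre-treatment state. At 72 h, 1 gene had risen in KO (CANX) and 6 had fallen (HLA-E, TAP1, TAPBP, PSMB8, PSMB9 and RFX5), beside 11.4% of all genes called (4.65% higher and 6.7% lower). In WT, 1 had risen (CANX) and 5 had fallen (HLA-E, MICB, TAP1, TAPBP and RFX5), beside 13.6% (6.41% higher and 7.23% lower). The median over the 33 genes was -0.21 in KO and -0.36 in WT, against -0.00133 and -0.02 over all genes. At 264 h in DMSO, 1 gene was above the pre-treatment level in KO (PDIA3) and 1 below (HLA-E), beside 3.93% of all genes (1.98% higher and 1.94% lower). In WT 3 were below it (HLA-E, TAP1 and TAPBP), beside 4.92% (2.1% higher and 2.82% lower). From 72 h to 264 h in DMSO, MICB and TAPBP rose in KO, beside 4.68% of all genes (2.74% higher and 1.94% lower). None was called in WT by edgeR or DESeq2, with 1 at an unadjusted p under 0.05, beside 0.00544% of all genes. The Aza and the DMSO time comparisons share the DMSO libraries at 72 h, so a low value there raises one and lowers the other. For this reason the levels are given library by library.

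**Figure D1:**
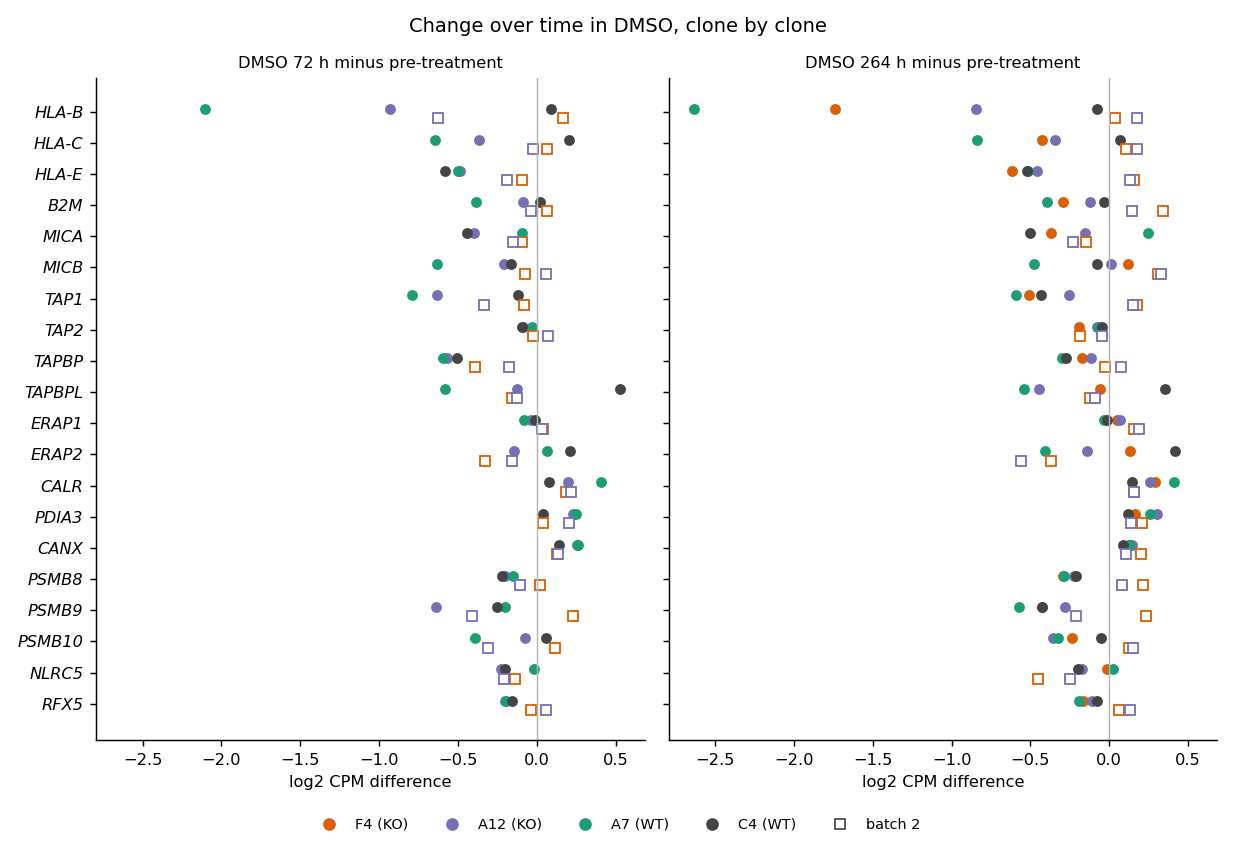
Log2 CPM difference from the pre-treatment library of the same clone label at 72 h and 264 h in DMSO (horizontal axis) for 20 class I, loading and transactivator genes (rows); each point is 1 clone and squares mark the second batch. HLA-E lay between -0.58 and -0.49 at 72 h in the first batch, where the A7 and C4 values rest on the doubted pre-treatment labels, and between -0.19 and -0.09 in the second; with those labels exchanged the fitted WT difference was -0.55.

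HLA-E, a class I chain with little variation between people that presents leader peptides to NK cell receptors, was the clearest case (ENSG00000204592.5, chr6:30457244-30461982 in hg19, plus strand). In KO it stood at 214 CPM in F4 and 189 in A12 before treatment, and at 201 and 187 with Aza at 72 h. With DMSO at 72 h it was at 135 in A12 in the first batch and at 161 in F4 and 151 in A12 in the second. The Aza libraries at 72 h thus lay within the pre-treatment range or just below it, and above every DMSO library of that time. At 264 h HLA-E was at 151 and 144 CPM with Aza in F4 and A12. With DMSO at 264 h it was at 139 and 137 in the first batch and at 192 and 188 in the second, so that the batches did not overlap within this group. The second batch's pre-treatment libraries with mixed labels were at 172 in both clones. In WT, A7 and C4 stood at 218 and 193 CPM before treatment, at 204 and 162 with Aza and 155 and 129 with DMSO at 72 h, and at 141 and 124 with Aza and 153 and 135 with DMSO at 264 h. Aza and DMSO libraries did not overlap at 72 h and did overlap at 264 h.

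Fitted over 25 libraries, the log2 difference of HLA-E between Aza and DMSO at 72 h was 0.60 ± 0.07 (SE; adjusted p = 1.19e-06) in KO and 0.37 ± 0.07 (adjusted p = 0.000391) in WT. HLA-E was higher with Aza in 3 of the 3 clones that could be compared within the first batch, by 0.333 to 0.471 in log2 CPM. A12, the KO clone among them, stood at 0.471, so the fitted KO value lay above each of these differences. The fit sets the batches level by 1 offset for all times. In A12 with DMSO the batches lay further apart at 264 h than at 72 h. Without each clone in turn, the HLA-E difference at 72 h was 0.521 to 0.761 in KO and 0.323 to 0.40 in WT. Every other KO gene called for Aza at 72 h lost its call without A12. In that fit F4 with Aza in the first batch was set against F4 with DMSO in the second. The batches were then set level by the F4 DMSO libraries at 264 h, so the KO value without A12 is not a comparison within a batch. The KO and WT effects were not shown to differ (0.24 ± 0.10, adjusted p = 1.0). At 264 h the differences were 0.04 ± 0.07 in KO and -0.11 ± 0.07 in WT. Over time in DMSO, HLA-E fell by 0.66 ± 0.07 in KO and by 0.54 ± 0.07 in WT at 72 h, and was still lower by 0.48 ± 0.07 and 0.52 ± 0.07 at 264 h. The KO value at 72 h was larger than the fall in either batch fitted alone, given next. It was also larger than the log2 CPM differences within clones: -0.486 in A12 in the first batch, and -0.094 in F4 and -0.188 in A12 in the second. Within the batches the KO fall at 72 h was -0.53 in the first (adjusted p = 0.00106) and -0.14 in the second (adjusted p = 0.312), and at 264 h -0.54 and 0.11 (adjusted p = 0.28). Without F4 the KO value at 264 h was -0.39 (adjusted p = 0.367). Aza at 72 h against the pre-treatment state gave -0.05 ± 0.07 in KO and -0.17 ± 0.07 in WT. With the F4 library that had failed quality control included, the KO drug effect was 0.38 with an adjusted p of 0.0578 and the WT effect 0.36 with 0.142, and no gene of the 33 was called for Aza in WT.

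**Figure D2:**
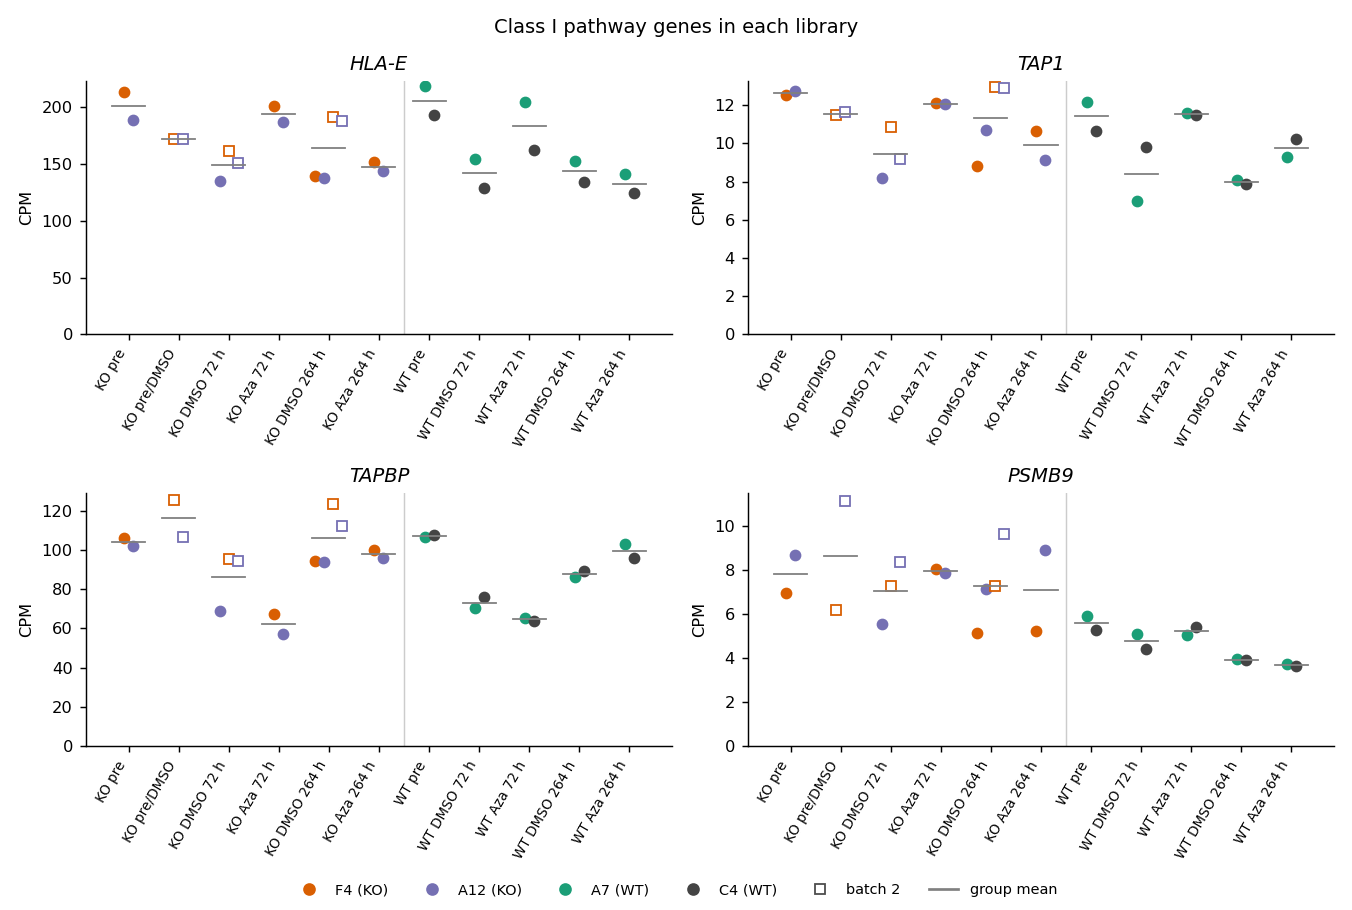
CPM (vertical axis, linear from 0) of HLA-E, TAP1, TAPBP and PSMB9 in every library by group (horizontal axis), coloured by clone, with squares for the second batch and a grey bar for the group mean. HLA-E in KO was at 187 to 201 CPM with Aza and at 135 to 161 with DMSO at 72 h.

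HLA-B, a classical class I heavy chain, was low in TF-1 and varied most among the class I chains (chr6:31321649-31324965 in hg19, minus strand). Before treatment it stood at 21.2 CPM in F4 and 25.7 in A12, and at 19.6 in A7 and 7.29 in C4. At 72 h it was at 14.9 and 23.1 with Aza in F4 and A12, against 13.5 with DMSO in A12 and 12.4 and 14.0 in the second batch. At 72 h the values in A7 and C4 were 8.12 and 10.5 with Aza and 4.51 and 7.77 with DMSO. All Aza libraries at 72 h exceeded the DMSO libraries of their genotype. At 264 h F4 and A12 were at 8.59 and 14.0 with Aza and at 6.30 and 14.3 with DMSO, and at 11.3 and 24.4 with DMSO in the second batch, whose mixed-label pre-treatment libraries were at 11.1 and 21.6. A7 and C4 were at 4.89 and 8.43 with Aza and 3.102 and 6.91 with DMSO at 264 h. The library of one clone often lay in the range of another group. The log2 difference between Aza and DMSO at 72 h in KO was 1.01 ± 0.48 with an adjusted p of 0.175 over 25 libraries, and 1.00 ± 0.25 with 0.0106 over 23. In DMSO at 72 h the KO difference from the pre-treatment state was -1.35 ± 0.48 (adjusted p = 0.0935) and -1.36 ± 0.25 (adjusted p = 0.00252) in the same fits. Both calls therefore rested on whether the pre-treatment WT libraries were in the fit, while the estimates hardly moved.

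B2M, the light chain of every class I molecule, was abundant and moved little (chr15:45003675-45011075, plus strand). It was at 571.5 and 471 CPM in F4 and A12 before treatment, 469 and 404 with Aza and 443 in A12 with DMSO at 72 h, and 475 and 431 with Aza and 467 and 433 with DMSO at 264 h. In the second batch F4 and A12 were at 444 and 440.3 before treatment, 464 and 430.2 at 72 h and 563 and 487 at 264 h with DMSO. The WT clones A7 and C4 were at 625 and 504 before treatment, 466 and 429 with Aza and 478 and 512 with DMSO at 72 h, and 450 and 491 with Aza and 475 and 492 with DMSO at 264 h. The 2 highest values were pre-treatment libraries, those labelled A7 and F4, and Aza and DMSO libraries overlapped in KO at 72 h. The Aza difference at 72 h was 0.02 ± 0.09 in KO and -0.15 ± 0.09 in WT, neither called. Within the first batch B2M was lower with Aza in 3 of 3 clones at 72 h, by -0.255 to -0.039 in log2 CPM. A12, the KO clone among them, thus went the other way from the fitted KO value. Against the pre-treatment state, B2M fell with Aza at 72 h by 0.25 ± 0.09 in KO (adjusted p = 0.0376) and by 0.33 ± 0.09 in WT (adjusted p = 0.00746).

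Of the other class I chains, HLA-C ranged from 49.1 to 111 CPM, and its Aza difference at 72 h in KO was 0.30 ± 0.19 over 25 libraries (adjusted p = 0.329) and 0.29 ± 0.09 over 23 (adjusted p = 0.0171). MICA and MICB encode stress ligands of the NK cell receptor NKG2D. MICA ranged from 8.48 to 12.7 CPM and rose with Aza at 72 h in KO by 0.43 ± 0.14 (adjusted p = 0.0382), a call lost without either clone. MICB ranged from 14.7 to 26.7 CPM and fell in WT in DMSO at 72 h by 0.41 ± 0.11 (adjusted p = 0.0124), which without A7 was -0.17 (adjusted p = 0.475).

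Among the loading and trimming genes, TAP1 moved as HLA-E did (chr6:32812986-32821755, minus strand). In F4 and A12 it was at 12.5 and 12.8 CPM before treatment and at 12.1 and 12.0 with Aza at 72 h, against 8.21 in A12 with DMSO and 10.8 and 9.20 in the second batch. At 264 h it was at 10.6 and 9.14 with Aza, 8.79 and 10.7 with DMSO, and 13.0 and 12.9 with DMSO in the second batch, where the mixed-label pre-treatment libraries were at 11.5 and 11.6. The WT values in A7 and C4 were 12.2 and 10.7 before treatment, 11.6 and 11.5 with Aza and 6.99 and 9.80 with DMSO at 72 h, and 9.28 and 10.2 with Aza and 8.07 and 7.87 with DMSO at 264 h. At 72 h the Aza libraries exceeded all DMSO libraries in both genotypes, and at 264 h they did so in WT only. TAP1 rose with Aza at 72 h by 0.61 ± 0.15 in KO (adjusted p = 0.00402) and by 0.46 ± 0.14 in WT (adjusted p = 0.0227). In the first batch alone the KO value was 0.57 with an adjusted p of 0.0675, without F4 it was 0.56 with 0.0992, without A12 0.70 with 0.297, and without A7 the WT value was 0.22 with 0.515. In DMSO at 72 h TAP1 fell by 0.67 ± 0.15 in KO (adjusted p = 0.00377; -0.20 with 0.46 in the second batch alone) and by 0.45 ± 0.14 in WT (adjusted p = 0.0347; -0.13 with 0.724 without A7).

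TAPBP, the tapasin that bridges class I molecules to the transporter, was the exception (chr6:33267471-33282164, minus strand): it was lower at 72 h in both arms and lowest with Aza. In F4 and A12 it was at 106 and 102 CPM before treatment, 67.1 and 57.0 with Aza at 72 h, 68.7 in A12 with DMSO, and 95.6 and 94.5 with DMSO in the second batch. By 264 h it was back at 99.95 and 95.7 with Aza and at 94.2 and 94.0 with DMSO, and in the second batch at 124 and 112 beside mixed-label pre-treatment values of 126 and 107. A7 and C4 stood at 106.5 and 108 before treatment, 65.5 and 63.8 with Aza and 70.4 and 76.1 with DMSO at 72 h, and 103 and 95.8 with Aza and 86.4 and 89.1 with DMSO at 264 h. Every Aza library at 72 h was below every other library of its genotype. In DMSO at 72 h TAPBP fell by 0.50 ± 0.07 in KO (adjusted p = 8.96e-05) and by 0.55 ± 0.07 in WT (adjusted p = 1.79e-05), and the KO fall was called in each batch alone (-0.56 and -0.29) but not without A12 (-0.53, adjusted p = 0.0952). With Aza at 72 h it differed from DMSO by -0.24 ± 0.07 in KO (adjusted p = 0.0205) and -0.18 ± 0.07 in WT (adjusted p = 0.0774). Against the pre-treatment state, TAPBP with Aza at 72 h was lower by -0.75 ± 0.07 in KO and -0.73 ± 0.07 in WT. The Aza effect itself differed between the times (264 h minus 72 h), by 0.32 ± 0.09 in KO and 0.36 ± 0.10 in WT. In that comparison TAPBP was the 1 gene of the 33 called higher in each genotype, and HLA-E and, in KO, TAP1 were called lower, beside 13.1% of all genes in KO (5.48% higher and 7.67% lower) and 6.83% in WT (4% and 2.83%).

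ERAP2, a peptide-trimming aminopeptidase, was low (chr5:96211643-96255420, plus strand). It was at 3.16 and 3.92 CPM in F4 and A12 before treatment, 2.80 and 1.86 with Aza and 3.54 in A12 with DMSO at 72 h, and 4.38 and 3.51 with Aza and 3.46 and 3.55 with DMSO at 264 h. The second batch gave 3.09 and 4.09 before treatment, 2.44 and 3.67 at 72 h and 2.37 and 2.75 at 264 h. In A7 and C4 it was at 4.37 and 3.499 before treatment, 1.602 and 3.45 with Aza and 4.58 and 4.06 with DMSO at 72 h, and 3.77 and 4.84 with Aza and 3.29 and 4.69 with DMSO at 264 h. The lowest WT value was that of A7 with Aza at 72 h, and 1 library decided the call. ERAP2 fell with Aza at 72 h in WT by 0.81 ± 0.28 (adjusted p = 0.0458), and without A7 by 0.25 (adjusted p = 0.714). In KO the difference was -0.67 ± 0.30 (adjusted p = 0.13).

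Its relative ERAP1, at 56.0 to 75.8 CPM, fell with Aza at 72 h by 0.26 ± 0.06 in KO (adjusted p = 0.00425) and by 0.21 ± 0.06 in WT (adjusted p = 0.0121). The KO call was lost without A12 (-0.23, adjusted p = 0.39), and the WT call without A7 (-0.24, adjusted p = 0.105) or C4 (-0.20, adjusted p = 0.204). The transporter's other subunit TAP2, at 26.5 to 43.8 CPM, fell by 0.32 ± 0.09 in KO (adjusted p = 0.00996; 0.124 without F4 and 0.202 without A12), so that the subunits of 1 transporter were called in opposite directions. The chaperones changed slightly: CANX rose in DMSO at 72 h by 0.19 ± 0.06 in KO and 0.20 ± 0.06 in WT, and CALR was higher with Aza at 72 h than before treatment by 0.46 ± 0.09 in KO and 0.42 ± 0.09 in WT.

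The immunoproteasome subunits PSMB8, PSMB9 and PSMB10 replace constitutive subunits and favour peptides that fit class I grooves. PSMB9 (chr6:32811913-32827362, plus strand, overlapping TAP1) was at 6.94 and 8.69 CPM in F4 and A12 before treatment, 8.04 and 7.87 with Aza and 5.56 in A12 with DMSO at 72 h, and 5.22 and 8.92 with Aza and 5.15 and 7.14 with DMSO at 264 h. The second batch gave 6.17 and 11.1 before treatment, 7.26 and 8.37 at 72 h and 7.26 and 9.61 at 264 h. In A7 and C4 it was at 5.89 and 5.28 before treatment, 5.03 and 5.39 with Aza and 5.11 and 4.42 with DMSO at 72 h, and 3.73 and 3.64 with Aza and 3.94 and 3.92 with DMSO at 264 h. Aza and DMSO libraries overlapped at 72 h in both genotypes. The fit, which sets the batches level, gave a rise with Aza at 72 h in KO of 0.63 ± 0.18 (adjusted p = 0.015), a call lost without F4 (0.435, adjusted p = 0.197) or without A12 (0.62, adjusted p = 0.359). PSMB8 ranged from 33.4 to 77.5 CPM and fell in DMSO at 72 h in KO by 0.31 ± 0.09 (adjusted p = 0.0218, and -0.05 with 0.851 in the second batch alone). The log2 CPM differences within clones were all smaller. They were -0.219 to -0.149 over A12, A7 and C4 in the first batch and -0.103 to 0.021 over F4 and A12 in the second. PSMB10, at 5.94 to 11.0 CPM, was not called for drug or time.

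**Figure D3:**
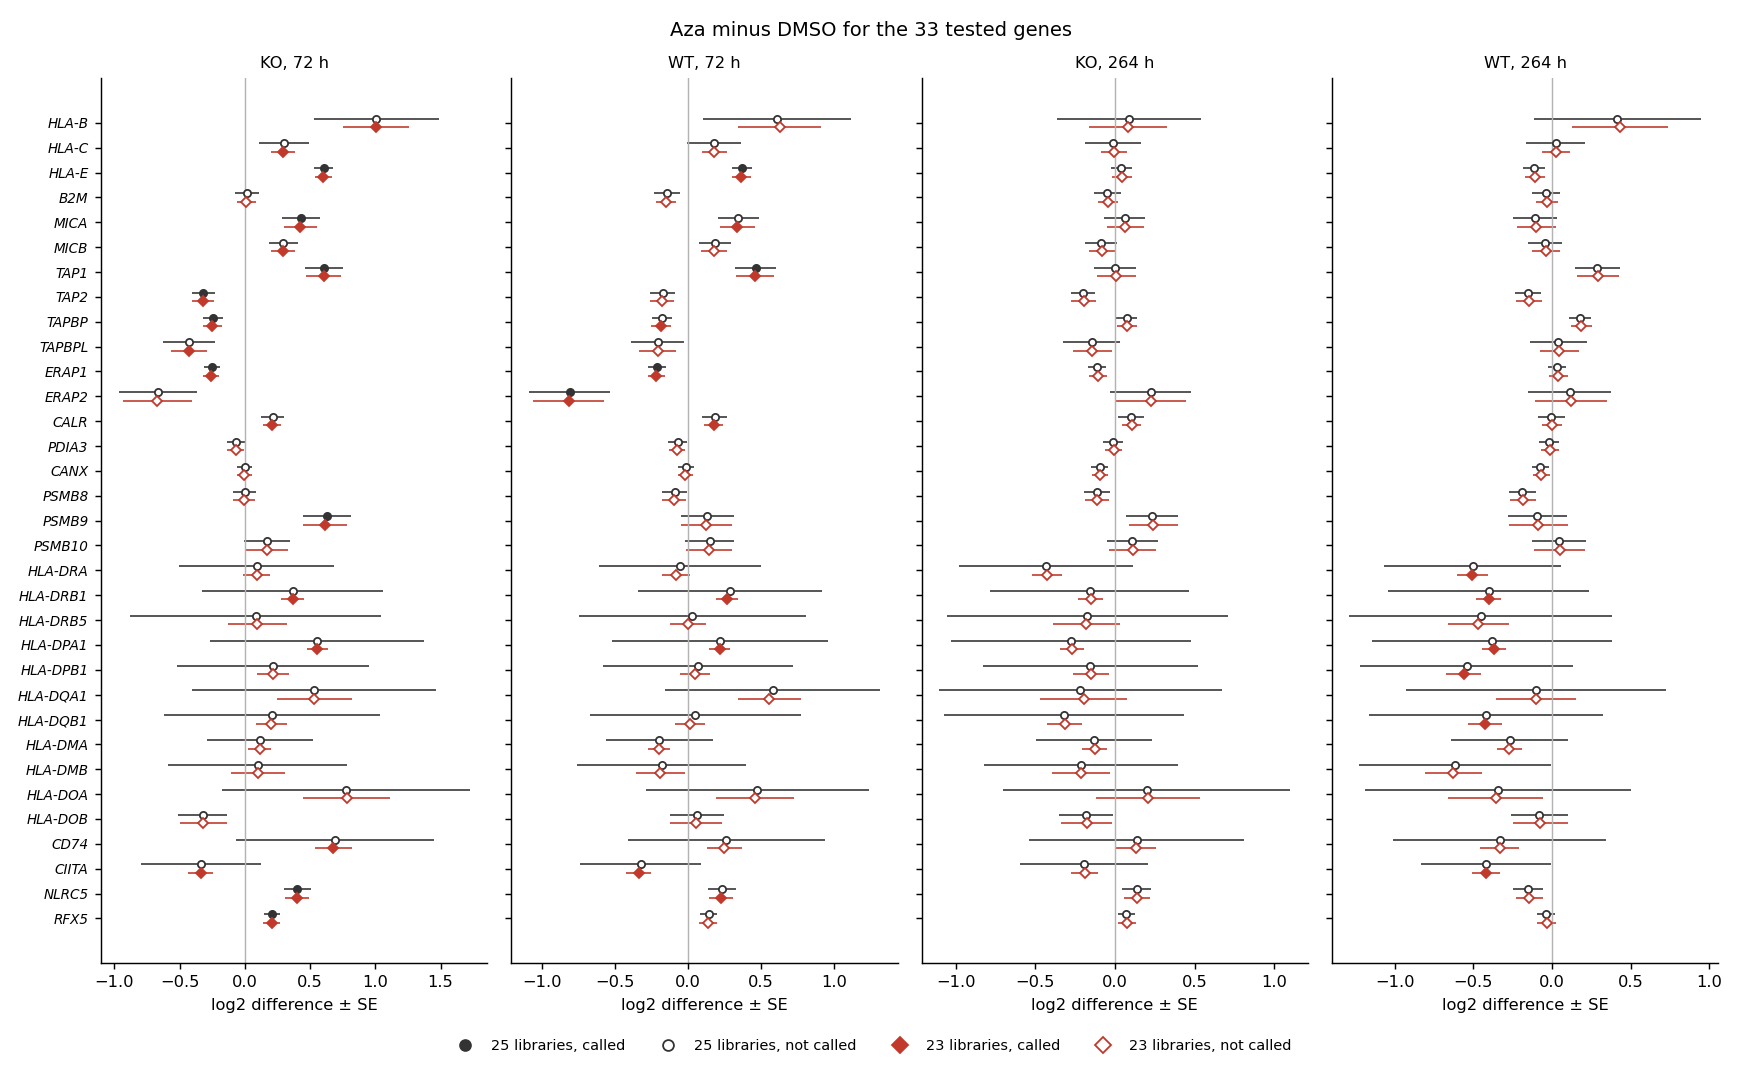
Log2 difference between Aza and DMSO with its standard error (horizontal axis) for the 33 tested genes (rows) in KO and WT at 72 h and 264 h (panels); black circles are the fit of 25 libraries, red diamonds that of 23, and filled symbols passed the adjusted threshold. HLA-E at 72 h was called in both genotypes and both fits, and the intervals of class II genes narrowed in the smaller fit.

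The class II chains varied between clones far more than with drug or time. HLA-DRA, the invariant alpha chain of HLA-DR (ENSG00000204287.9, chr6:32407619-32412823, plus strand), was at 255 CPM in F4 and 144 in A12 before treatment. It was at 300.1 and 160.4 with Aza and at 164 in A12 with DMSO at 72 h, and at 209 and 97.2 with Aza and 244 and 143 with DMSO at 264 h. In the second batch F4 and A12 were at 158 and 104 before treatment, 196 and 112 at 72 h and 213 and 104 at 264 h with DMSO. The library labelled A7 was at 231 and that labelled C4 at 574 before treatment. Later, A7 and C4 stood at 694 and 186 with Aza and 660 and 221 with DMSO at 72 h, and at 396 and 122 with Aza and 550.2 and 179 with DMSO at 264 h. F4 exceeded A12 in 7 of 7 pairs, by 1.51 to 2.15 times, and A7 exceeded C4 by 2.98 to 3.72 times in the 4 later groups, whereas the pre-treatment ratio was 0.403. Aza and DMSO libraries overlapped in both genotypes at both times, since clones of 1 group differed more than treatments.

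CD74 showed the widest gap between the KO clones (chr5:149781200-149792492, minus strand). F4 stood at 198.5 CPM before treatment, 198 with Aza at 72 h, and 146 with Aza and 148.5 with DMSO at 264 h, and in the second batch at 157 before treatment, 157 at 72 h and 174 at 264 h with DMSO. A12 stood at 39.1 before treatment, 47.7 with Aza and 25.9 with DMSO at 72 h, and 34.8 with Aza and 28.4 with DMSO at 264 h, and in the second batch at 25.2, 26.6 and 26.9. A7 and C4 stood at 122 and 402 before treatment as labelled, 382 and 90.1 with Aza and 311 and 78.5 with DMSO at 72 h, and 236 and 62.1 with Aza and 296 and 78.9 with DMSO at 264 h. No A12 library reached any F4 library, the ratio of F4 to A12 being 4.14 to 6.48. In the 3 clones with both treatments in the first batch at 72 h, CD74 was higher with Aza in 3 of 3.

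**Figure D4:**
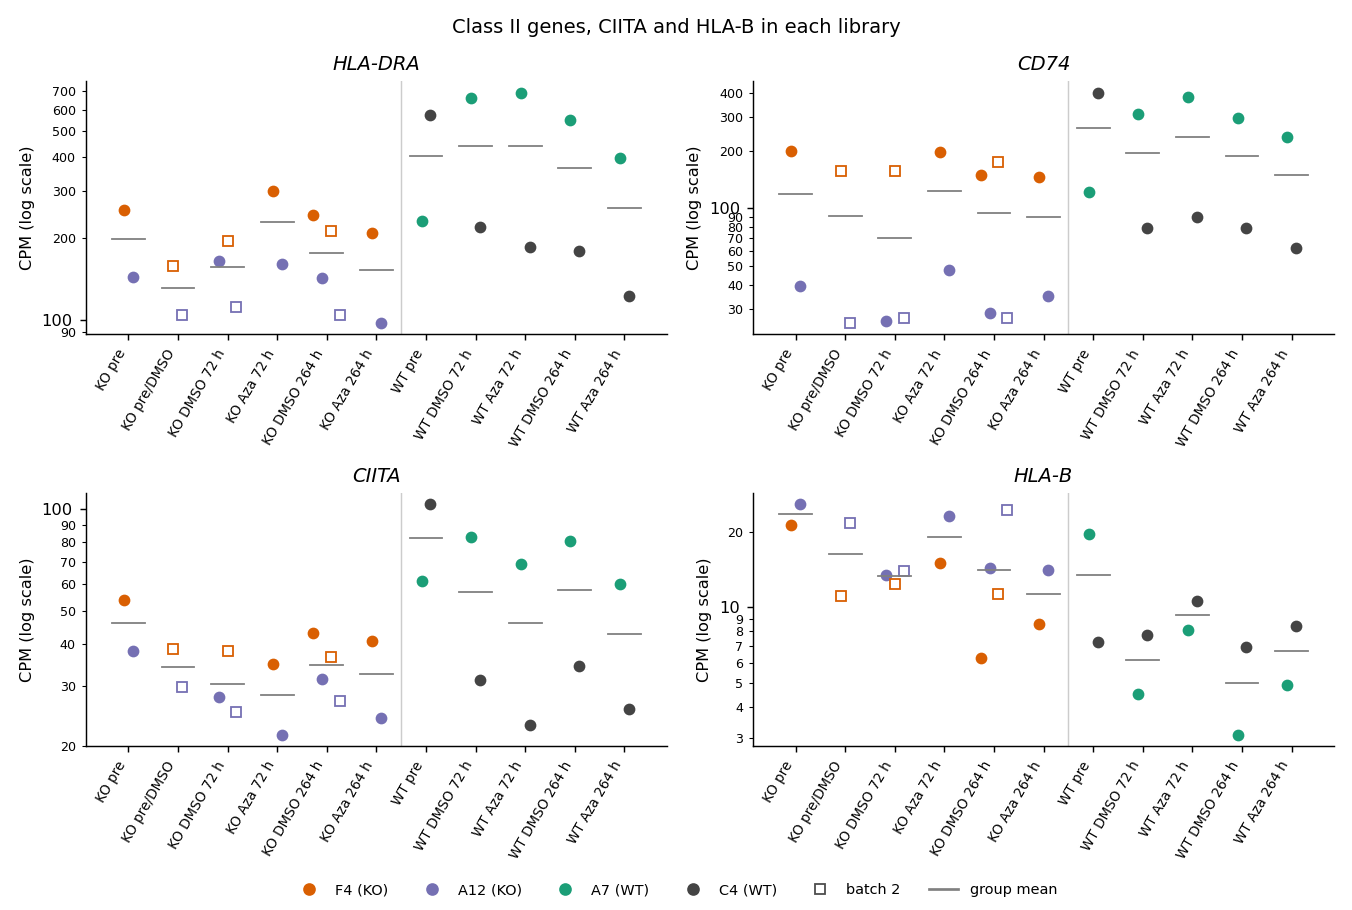
CPM (vertical axis, logarithmic) of HLA-DRA, CD74, CIITA and HLA-B in every library by group (horizontal axis), coloured by clone, with squares for the second batch and a grey bar for the group mean. F4 lies above A12 for HLA-DRA, CD74 and CIITA in every group that holds both, and the pre-treatment WT libraries show the reverse order of A7 and C4 from all later groups.

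With all 25 libraries, none of the 12 class II genes was called for Aza or DMSO time in either genotype. The standard error of HLA-DRA was then 0.59 for Aza at 72 h in KO, around a difference of 0.09. Of the 12, 11 lay above 0 with Aza at 72 h in KO and 9 in WT, and at 264 h 10 lay below 0 in KO and 12 in WT. Without the 2 pre-treatment WT libraries the errors were smaller. The fit of 23 libraries called 13 of the 33 genes higher and 5 lower with Aza at 72 h in KO, beside 14.8% and 11.3% of all genes, and 7 higher and 4 lower in WT, beside 11.9% and 12%. Among them, HLA-DRB1 rose by 0.36 ± 0.08 in KO and 0.27 ± 0.08 in WT, and HLA-DPA1 by 0.55 ± 0.08 in KO and 0.22 ± 0.07 in WT. CD74 rose in KO by 0.68 ± 0.14 (adjusted p = 0.00268).

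At 264 h in WT the calls were on the lower side. The same fit called 6 genes lower with Aza and none higher, beside 1.94% of all genes (0.645% lower): HLA-DRA (-0.50 ± 0.10), HLA-DRB1 (-0.40 ± 0.08), HLA-DPA1 (-0.37 ± 0.08), HLA-DPB1 (-0.56 ± 0.11), HLA-DQB1 (-0.43 ± 0.11) and CIITA (-0.42 ± 0.09). In KO at 264 h it called none of the 33, with 5 at an unadjusted p under 0.05, beside 0.481% of all genes. The difference between the Aza effects at 264 h and 72 h was itself called for HLA-DRB1 (-0.52 ± 0.10 in KO and -0.67 ± 0.11 in WT) and for HLA-DPA1 (-0.82 ± 0.10 and -0.59 ± 0.11), in a comparison that called 2 genes higher and 8 lower in KO (8.02% and 10.7% of all genes) and 2 higher and 6 lower in WT (6.41% and 4.68%).

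For class II genes over time in DMSO, the 23-library fit of KO at 72 h called CD74 (-0.56 ± 0.14) and CIITA (-0.39 ± 0.09) among 3 genes higher and 11 lower (7.35% and 11.1% of all genes). Neither was called in the second batch alone, where F4 and A12 held CD74 within 0.01 to 0.08 log2 of the pre-treatment value at 72 h. At 264 h that batch did call HLA-DOB below its mixed-label pre-treatment libraries (-0.72 ± 0.15), beside 9.19% of all genes called lower. In WT the change from the pre-treatment state depended on the labels. With them exchanged, 2 genes were called higher and 8 lower at 72 h (8.65% and 9.76% of all genes) and 2 higher and 12 lower at 264 h (3.77% and 4.78%). The latter included HLA-DQA1 at -1.30 ± 0.25 (adjusted p = 0.000968), CD74 at -0.54 ± 0.13 (adjusted p = 0.0169) and HLA-DPA1 at -0.50 ± 0.08 (adjusted p = 0.000184), none of which was called with the labels as deposited.

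CIITA, the class II coactivator (chr16:10971055-11026079, plus strand), was highest in A7 in every group after treatment. F4 and A12 stood at 54.0 and 38.0 CPM before treatment, 34.8 and 21.6 with Aza and 27.8 in A12 with DMSO at 72 h, and 40.9 and 24.1 with Aza and 43.0 and 31.4 with DMSO at 264 h. The second batch gave 38.6 and 29.8 before treatment, 38.1 and 25.2 at 72 h and 36.7 and 27.1 at 264 h. The libraries labelled A7 and C4 stood at 61.4 and 103 before treatment, 69.1 and 23.0 with Aza and 82.7 and 31.4 with DMSO at 72 h, and 59.9 and 25.8 with Aza and 80.6 and 34.4 with DMSO at 264 h. CIITA was lower with Aza than with DMSO in 3 of 3 clones at 72 h and in 4 of 4 at 264 h, although groups overlapped because the clones differed. In the fit of 23 libraries CIITA fell with Aza at 72 h by 0.34 ± 0.10 in KO (adjusted p = 0.00811) and by 0.34 ± 0.09 in WT (adjusted p = 0.00355). It thus fell at the time at which HLA-DRB1 and HLA-DPA1 rose.

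NLRC5, the class I coactivator (chr16:57023397-57117443, plus strand), was at 32.05 and 34.6 CPM in F4 and A12 before treatment, 38.3 and 45.6 with Aza and 29.5 in A12 with DMSO at 72 h, and 32.8 and 33.3 with Aza and 31.8 and 30.6 with DMSO at 264 h. The second batch gave 41.0 and 38.2 before treatment, 37.2 and 33.1 at 72 h and 29.9 and 32.2 at 264 h. In that batch alone the fall at 264 h was called (-0.39 ± 0.08), beside 9.19% of all genes called lower. In A7 and C4 it was at 43.4 and 46.0 before treatment, 52.8 and 44.8 with Aza and 42.9 and 40.1 with DMSO at 72 h, and 39.1 and 36.7 with Aza and 44.1 and 40.0 with DMSO at 264 h. Aza exceeded DMSO at 72 h in every library of both genotypes. NLRC5 rose in KO by 0.40 ± 0.10 (adjusted p = 0.00552), which was -0.07 without A12 (adjusted p = 0.902), when F4 was compared across batches, and in WT the difference was 0.23 ± 0.09 (adjusted p = 0.0914). RFX5, the DNA-binding subunit of the RFX complex, varied little, from 65.2 to 85.7 CPM, and rose with Aza at 72 h in KO by 0.21 ± 0.06 (adjusted p = 0.0175).

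Taking the drug and the time in DMSO together, Aza libraries at 72 h were also compared with the pre-treatment state. In KO, 3 of the 33 genes were higher (CALR, CANX and NLRC5) and 7 lower, beside 28.6% of all genes called (15.1% higher and 13.5% lower). In WT, 2 were higher (CALR and CANX) and 5 lower, beside 28.5% (14.3% and 14.2%). B2M, TAP2, TAPBP, ERAP1 and PSMB8 were lower in both. TAP1 was called in neither.

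The genotypes were not shown to differ. The difference between the KO and WT Aza effects was called for none of the 33 genes at 72 h or 264 h by edgeR or DESeq2, and for 0% of all genes, with 1 of the 33 at an unadjusted p under 0.05 at each time. The fit of 23 libraries also called 0 at each time, with 4 at an unadjusted p under 0.05. In direct comparisons of KO with WT within the first batch, edgeR called none before treatment (0.0543% of all genes), with DMSO at 264 h (0.208%), with Aza at 72 h (0.19%) or with Aza at 264 h (0.0488%). At an unadjusted p under 0.05 there were 7, 4, 3 and 2 of the 33, and DESeq2 called 0, 0, 1 and 0. In each of these conditions 11 of the 12 class II genes were lower in KO and 1 was higher. Their median log2 differences were -1.173, -1.0, -0.964 and -0.735 in the same order. With 2 clones in each arm and class II levels that differ several fold between clones of 1 genotype, these direct comparisons have low precision for class II genes. A separate contrast compared the genotypes in their DMSO change from the pre-treatment state at 264 h. It gave 0.69 ± 0.79 for HLA-DRA over all 25 libraries, which include the doubted pre-treatment WT libraries.

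Clones of 1 genotype, by contrast, differed in many of the genes. In the fit of 23 libraries, C4 was below A7 in 11 of 12 class II genes and in CIITA, with 4 genes higher and 13 lower among the 33 beside 12.6% of all genes called (6.57% higher and 6.02% lower). HLA-DRB5 differed most (-2.39 ± 0.14), and HLA-DRA differed by -1.70 ± 0.07 and CIITA by -1.36 ± 0.06. HLA-B differed the other way (0.73 ± 0.21, adjusted p = 0.0402). In the same fit A12 was below F4 in 10 of 12 class II genes, with CD74 at -2.39 ± 0.07 and HLA-DRA at -0.85 ± 0.05, and 37.7% of all genes were called (18.7% higher and 19% lower). Over 25 libraries 6 genes were higher in A12 and 5 lower (15.3% and 16.3% of all genes), and CD74 was the class II gene among them (-2.39 ± 0.38). In the second batch alone the gap was as large, at -2.63 ± 0.06 for CD74 and -0.81 ± 0.06 for HLA-DRA. In that batch too HLA-B went the other way, with A12 above F4 by 0.78 ± 0.19.

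**Figure D5:**
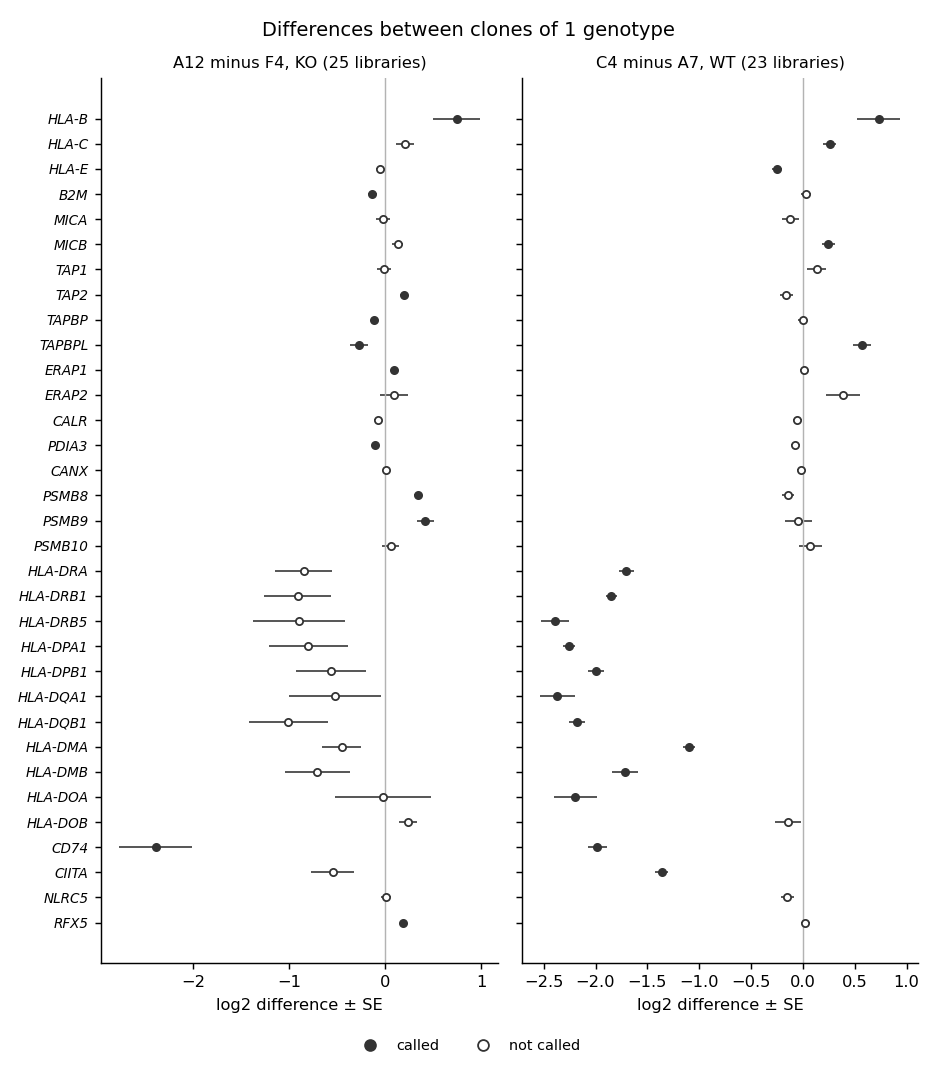
Log2 difference between clones with its standard error (horizontal axis), A12 minus F4 over 25 libraries and C4 minus A7 over 23 libraries, for the tested genes (rows). CIITA and 11 of 12 class II genes lie to the left in A12 minus F4, where HLA-DOB lies at 0.24, and all 12 do in C4 minus A7, down to -2.39 for CD74 in A12 and for HLA-DRB5 in C4, while HLA-B lies at 0.74 and 0.73.

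Other genes of the same stretch of chromosome 6 were measured as well. Between 29690552 and 33282164 (hg19), 92 other protein-coding genes were tested. For A12 minus F4 their median was -0.03, with 4 called higher and 21 lower (15.3% and 16.3% over all genes), and for C4 minus A7 it was 0.01, with 3 called higher and 10 lower (6.57% and 6.02%). Most of the called neighbours thus went the same way as the class II genes, whose medians over 12 genes were -0.75 and -1.99.

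The pattern over the 25 libraries, after removal of the batch mean, was described by the correlation of log2 CPM with HLA-DRA. These libraries share clones, depth and the same reference state, so the values carry no test. The 8 closest genes of the table were all class II chains or HLA-DM, from HLA-DQB1 (Pearson r = 0.989) to HLA-DQA1 (0.92). CD74 ranked 10 (0.887) and CIITA 12 (0.87). The 5 closest genes from outside the list were ZNF90 (0.912), F2RL1 (0.881), HLA-DRB6 (0.857), DCAF12 (0.854) and MMP15 (0.85). HLA-DOB, unlike the other class II genes, stood at -0.253, and HLA-B ranked 17961 of 18391 at -0.614.

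Other genes of the pathways were counted from lists of related genes. Over all genes, Aza at 72 h had 11.6% called higher and 8.47% lower in KO and 9.26% and 9.04% in WT, and DMSO at 72 h had 4.65% and 6.7% in KO and 6.41% and 7.23% in WT; the counts below, some of 1 or 2 genes, stand beside these shares. Of 15 type I interferon response genes 12 were tested, of which 8 rose and none fell with Aza at 72 h in KO, and 5 rose and none fell in WT. OAS3, an antiviral sensor of double-stranded RNA, rose from 0.549 to 0.717 CPM with DMSO to 2.79 to 3.11 with Aza in KO (2.16 ± 0.39, adjusted p = 0.000247). In WT it stood at 0.601 to 1.25 CPM with DMSO and 1.71 to 3.85 with Aza (1.56 ± 0.35, adjusted p = 0.00259). At 264 h none of the 12 was called in either genotype, and OAS3 was back at 0.913 to 0.953 CPM in KO. In DMSO at 72 h none of the 12 had risen, 1 had fallen in KO (IFNAR1, -0.34) and 2 in WT (GBP2, -1.05, and IFNAR2, -0.28). The summed erythroid markers moved over the same interval, at 4114 to 4834 CPM with Aza and 2434 to 3058 with DMSO at 72 h in KO and at 5437 to 5920 and 3926 to 4427 in WT; their part in the results was not tested.

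Of 8 tested genes of the interferon gamma pathway, SOCS1 (0.82 ± 0.22) and IRF1 (0.38 ± 0.13) rose with Aza at 72 h in KO. In WT none of the pathway's genes rose, and JAK2, a kinase bound to the receptor, was among those that fell (-0.36). Of 6 RFX, NFY and CREB subunits that CIITA works through, RFXAP rose in both genotypes (0.35 in each) and CREB1 fell in WT (-0.28). None of 7 constitutive proteasome genes was called for Aza at 72 h in either genotype. In DMSO at 72 h, 2 rose and 1 fell in KO (PSME3, 0.26, and PSME1, -0.35), and 5 rose in WT, led by POMP (0.37) and PSMB5 (0.31). Among 5 tested genes of class II proteolysis, CTSS, the cathepsin that degrades the invariant chain, fell with Aza at 72 h by 0.51 ± 0.10 in KO and 0.51 ± 0.10 in WT.

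Ligands outside the HLA system moved in small numbers. Of 6 tested NK ligands, ULBP2 rose with Aza at 72 h in KO (1.09) and NCR3LG1 in WT (0.30), and ULBP2 fell in DMSO at 72 h in KO (-1.01). Of 4 tested class I like genes, PROCR rose in both genotypes (1.02 ± 0.32 in KO and 1.17 ± 0.30 in WT) and HFE, a regulator of iron uptake, fell in KO (-0.85). Of 7 tested costimulatory and checkpoint ligands, CD40 rose in both (0.94 ± 0.23 in KO and 0.63 ± 0.21 in WT) and TNFSF9 in WT (0.86).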

How the data were processed

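The analysis started from raw counts per gene that the authors deposited in 1 table; per the file headers they were made with featureCounts 1.6.2 over GENCODE 19 exons, in paired mode and with no strand option. Per the submitters' processing notes, reads were trimmed with cutadapt and aligned to hg19 with STAR 2.6.1d. Library totals are given above. The 35 genes and all lists were chosen with earlier results of these data known. Values in every library are given for HLA-B, B2M, HLA-DRA, CD74, CIITA and NLRC5 and for genes called for drug or time with an absolute log2 difference of at least 0.5; of each pathway list at most 2 called genes are named per comparison. Genes with low counts were removed (filterByExpr) and 18391 were fitted with edgeR 4.0.16 (TMM, robust quasi-likelihood, R 4.3.3), with group, clone and batch as terms over all 25 libraries. KO was compared with WT in 2 against 2 libraries of the first batch. Calls had a Benjamini-Hochberg adjusted p under 0.05 over all tested genes. Errors are standard errors of log2 differences; CPM are on TMM library sizes, and log2 CPM has a prior count of 2. Clones pair the samples across treatments and times, so clone is the block. Alternatives were DESeq2 1.42.0, other filters and scalings, single batches, left-out clones, no clone block, the failed library included, and, chosen after seeing the data, the WT pre-treatment labels exchanged or those libraries left out. The fit was also run on simulated data with known changes. In those data clones and batches did not differ, so the run cannot show how the fit handles such differences.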

Additional observations from a re-analysis of the deposited data

Results flagged for a closer look

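Of the results tested for a difference between times under the same contrast, 5 passed the adjusted threshold of edgeR's quasi-likelihood test over 25 libraries: the effect of Aza against DMSO at 264 h differed from that at 72 h. For HLA-E the difference (264 h minus 72 h) was -0.567 ± 0.09 in KO (adjusted p = 7.47e-05) and -0.483 ± 0.10 in WT (adjusted p = 0.00233). For TAP1 in KO it was -0.605 ± 0.18 (adjusted p = 0.0227), and in WT -0.17 ± 0.20 (adjusted p = 0.72). For TAPBP the sign was the opposite, at 0.317 ± 0.09 in KO (adjusted p = 0.0168) and 0.36 ± 0.10 in WT (adjusted p = 0.0246). Over all genes, 13.1% were called for this difference in KO and 6.83% in WT. The single group large enough for a search for an outlying library, KO DMSO at 264 h with 4 libraries, had none for the genes described.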

How the results depend on the processing

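Counts are of the 33 genes called; the reported values stand in the report, and the cause of each change was not tested unless fewer libraries were fitted. With DESeq2, DMSO at 264 h against pre-treatment gave 4 in KO and 5 in WT, and KO against WT with Aza at 72 h gave 1. With the WT pre-treatment labels exchanged, Aza against DMSO gave 17 in KO at 72 h, 8 in WT at 72 h and 4 in WT at 264 h, DMSO against pre-treatment gave 13 and 7 in KO and 10 and 14 in WT at 72 h and 264 h, DMSO at 264 h against 72 h gave 1 in WT, and the Aza effect at 264 h minus 72 h gave 10 in KO and 6 in WT. With those libraries left out the corresponding Aza counts were 18, 11 and 6, DMSO against pre-treatment in KO 14 and 10, DMSO at 264 h against 72 h 4 in KO and 1 in WT, and 264 h minus 72 h 10 and 8. The first batch alone gave 4 for Aza in KO at 72 h, 3 for DMSO at 72 h, 0 for DMSO at 264 h against 72 h and 1 for the Aza effect at 264 h minus 72 h, all in KO. The second batch alone gave 1, 5 and 4 for DMSO at 72 h against pre-treatment, 264 h against 72 h and 264 h against pre-treatment. With the failed library included, Aza at 72 h gave 5 in KO and 0 in WT, DMSO at 72 h in WT gave 1, and DMSO at 264 h gave 0 against 72 h and against pre-treatment in KO and 0 against pre-treatment in WT, as did the Aza effect at 264 h minus 72 h in both (0 and 0). Without a filter on low counts, Aza gave 14 and 1 in KO and 9 and 7 in WT at 72 h and 264 h, DMSO against pre-treatment 12 and 8 in KO and 19 and 19 in WT, DMSO at 264 h against 72 h 2 in WT, KO minus WT at 264 h 1, 264 h minus 72 h 10 and 8, and KO against WT 4, 2, 1 and 3 before treatment, with DMSO at 264 h and with Aza at 72 h and 264 h.

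With no replicate block, that is without the clone that pairs the samples, Aza at 72 h gave 4 in KO and 1 in WT, DMSO against pre-treatment 3 and 0 in KO and 3 and 1 in WT, DMSO at 264 h against 72 h 1 in KO, and 264 h minus 72 h 1 in KO and 0 in WT. Fits of only the groups compared gave 1 for Aza in KO at 264 h, 17 and 10 in WT at 72 h and 264 h, 17 for DMSO at 264 h against pre-treatment in KO, 0 and 0 in WT at 72 h and 264 h, 10 for DMSO at 264 h against 72 h in WT, and 10 and 11 for 264 h minus 72 h. Leaving out 1 clone at a time, where the lone clone is assumed to vary like the other groups, gave 1 to 4 for Aza at 72 h in KO and 2 to 6 in WT, 0 to 0 and 1 to 1 at 264 h, and 1 to 1 in KO and 0 to 6 in WT for 264 h minus 72 h. It gave 1 to 2 in KO and 15 to 23 in WT for DMSO at 72 h against pre-treatment, 0 to 1 and 13 to 17 at 264 h, 0 to 0 in both for DMSO at 264 h against 72 h, and 0 to 0 for KO minus WT. KO against WT gave 0 to 2 before treatment, 0 to 1 with DMSO at 264 h, 0 to 1 with Aza at 72 h and 0 to 2 with Aza at 264 h.

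Single genes that changed sign, all in KO: with the failed library, ERAP1 for Aza at 72 h (0.054) and CANX (-0.048) and PSMB8 (0.13) for DMSO at 72 h; without A12, NLRC5 for Aza at 72 h (-0.066, and 0.581 without F4); in the second batch alone, RFX5 for DMSO at 72 h (0.003) and HLA-E for DMSO at 264 h against pre-treatment (0.109). Depth limits HLA-F and HLA-G, which were not tested, and 2 clones per genotype limit every comparison of genotypes. With 1 clone left out, the counts for WT DMSO against pre-treatment rest wholly on the doubted pre-treatment WT labels.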
